A study of Penicillium oxalicum with 9 samples.

Results

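POX01907, POX08340 and POX03446 are 3 genes of the mould Penicillium oxalicum, which secretes enzymes that break down starch, cellulose and other plant polysaccharides. POX01907 and POX08340 are the genes removed in the mutants studied here, and POX03446 encodes PoxRsrA in the literature on strain HP7-1. They were taken by their IDs, and all 3 were found among the 9834 IDs listed for every library. RNA from mycelium was sequenced in 9 libraries, 3 for each of the strains Ku70, MuPOX01907 and MuPOX08340, which carry the letters F, S and T. The study set out to explore transcription factors that act on amylase genes, and the question taken up here is which regulator transcript changed when another regulator was missing.

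Ku70 is the control strain and is a mutant itself. It is named after a gene of non-homologous end joining, whose loss makes a fungus insert introduced DNA by homology. MuPOX01907 and MuPOX08340 are named as mutants of POX01907 and POX08340. The labels do not state whether they also lack Ku70, or whether each strain is 1 clone. The sample titles give both mutants 24 h in medium with 1% starch and Ku70 24 h in medium with 1% Avicel, a microcrystalline cellulose. The growth protocol, the same for all 9 libraries, names Avicel, a temperature of 28 °C and shaking at 180 rpm. Strain and stated medium therefore cannot be told apart in any comparison with Ku70, whereas both mutants share a stated medium. The labels leave it unsaid whether the libraries of a strain stem from separate cultures, so that a p-value here reflects the spread among libraries and this spread may be technical.

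Filamentous fungi sense starch through its breakdown products and switch on secreted amylases and glucoamylases through transcription factors. In Aspergillus the zinc cluster protein AmyR is the best known of these. Such regulators often act in a hierarchy, where one factor is needed for the transcript of another, and glucose lowers the whole system through carbon catabolite repression. PoxRsrA is known in P. oxalicum as a regulator needed for production of a glucoamylase that digests raw starch. The sources used here do not say which proteins POX01907 and POX08340 encode. The files do not pair IDs with names, so mycelium markers could not be checked.

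Expected counts, the estimated reads per gene, totalled between 14412296 and 14802260 per library. Ku70 F stood apart from the other libraries. The summed level of 7 cellulase and xylanase IDs known from the HP7-1 literature was 21070 FPKM in Ku70 F and between 54.1 and 103 FPKM in the other 8 libraries, where FPKM is a read density scaled to gene length and library size. Differences from Ku70 of the regulators that were not deleted are therefore also given without Ku70 F.

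The transcript of each targeted gene was close to or at 0 in its own mutant. POX01907 had 1, 1 and 3 reads in MuPOX01907 F, S and T, against 1876, 1391 and 1346 reads in Ku70 and 1968, 1637 and 1602 in MuPOX08340, each in the order F, S and T. The summed reads, set against library totals, were 916-fold lower in MuPOX01907 than in Ku70 (exact binomial 95% interval 392 to 2822). As 3 of the 5 reads lay in MuPOX01907 T, the ratio was 1518 without that library. POX08340 had 0 reads in each MuPOX08340 library, against 876, 1013 and 870 reads in Ku70. With a floor of 3 reads set for the group, its level was 907-fold lower than in Ku70. Without MuPOX08340 F this figure drops to 602. Over all MuPOX08340 libraries the exact binomial 95% interval starts lower than the floor figure, at 737-fold. The intervals and the floor cover counting error only. Both genes thus matched their strain labels, and the changes of the deleted genes in their own mutants are not counted among the results that follow.

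In Ku70 the 3 regulators had middling levels that lay close together. POX08340 measured 30.6, 35.7 and 30.6 FPKM in Ku70 F, S and T, POX03446 measured 30.0, 22.0 and 24.5 FPKM, and POX01907 measured 22.9, 17.1 and 16.5 FPKM. As FPKM is scaled to gene length, these levels can be set side by side. POX08340 was the highest in each Ku70 library, although in Ku70 F it exceeded POX03446 by a ratio of only 1.02. POX01907 was the lowest in each, at 0.762, 0.775 and 0.675 of the POX03446 level. Across libraries the ranges of POX03446 and POX01907 overlapped. POX08340 exceeded between 58.3% and 63.5% of all IDs in a Ku70 library, POX03446 between 51.6% and 59.2%, and POX01907 between 42.8% and 51.8%. Their reads per gene went in another order, as the lengths implied by counts and FPKM differ: 5559 bases for POX01907, 1938 for POX08340 and 2603 for POX03446. POX01907, the lowest per length, therefore had the most reads of the 3 in every Ku70 library.

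**Figure D1:**
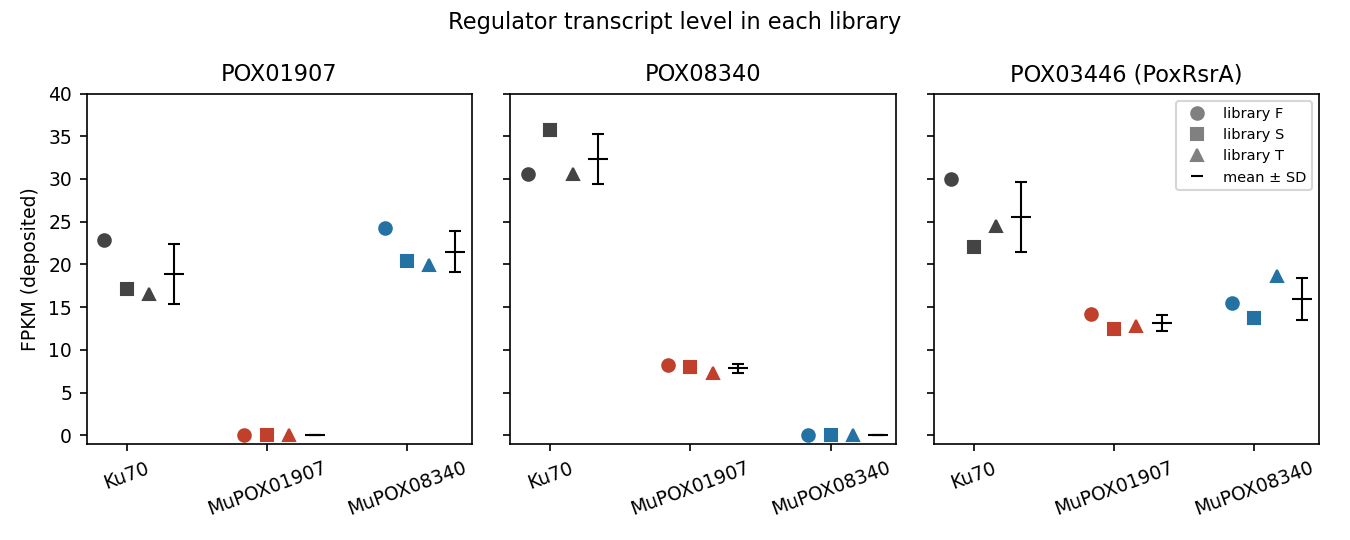
FPKM as deposited (y axis) of POX01907, POX08340 and POX03446 in the 3 libraries of each strain (symbols by letter), with the mean ± SD beside them (n = 3). POX01907 is near 0 in MuPOX01907 alone, POX08340 is at 0 in MuPOX08340 and between 7.28 and 8.26 FPKM in MuPOX01907, and POX03446 is lower in both mutants than in any Ku70 library.

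The POX08340 transcript was strongly reduced but still present in MuPOX01907. It measured 8.26, 8.01 and 7.28 FPKM in MuPOX01907 F, S and T, from 232, 226 and 208 reads. The lowest Ku70 library had 30.6 FPKM, so the groups lay far apart and each was narrow, with a coefficient of variation of 6.49% in MuPOX01907 and 9.04% in Ku70. The means were 7.85 ± 0.509 FPKM in MuPOX01907 and 32.3 ± 2.92 in Ku70 (SD, n = 3 each), a ratio of 4.11. With TMM scaling, which sets the bulk of genes level between libraries, POX08340 fell 3.28-fold in MuPOX01907 (95% interval 2.58 to 4.18; log2 -1.72, SE 0.146, edgeR adjusted p = 0.000261). On this scale 7.58% of the 8623 genes tested had a larger fall. The log2 difference was -1.74 without Ku70 F (edgeR adjusted p = 0.000214). It stayed between -2.04 and -1.61 over 22 alternative settings, with an adjusted p of at most 0.00299. In its place among all IDs, which needs no scaling between libraries, POX08340 went from above 58.3% or more of IDs in Ku70 to above 34.4% to 36.9% of them in MuPOX01907. In bulk RNA, fewer expressing cells and less transcript per cell cannot be told apart.

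The reverse comparison gave no such fall. POX01907 measured 24.2, 20.4 and 19.9 FPKM in MuPOX08340 F, S and T, and the range overlapped that of Ku70, where F had 22.9 FPKM. The means were 21.5 ± 2.37 FPKM in MuPOX08340 and 18.8 ± 3.52 in Ku70 (SD, n = 3 each). The difference did not pass the test (log2 0.17, SE 0.198, edgeR adjusted p = 0.592). Its 95% interval ran from 0.821-fold to 1.53-fold of Ku70, so a modest change in either direction is within it and a fall as large as that of POX08340 in MuPOX01907 is not. Without Ku70 F, the Ku70 library with the most POX01907, the difference was log2 0.35 (edgeR adjusted p = 0.129), with all 3 MuPOX08340 libraries above the other 2 Ku70 libraries. Whether the 2 effects differ from each other was not tested.

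POX03446, the PoxRsrA gene, was lower in both mutants than in Ku70, by an estimate under 2-fold with 95% intervals that reach past 2-fold. It measured 14.2, 12.5 and 12.8 FPKM in MuPOX01907 F, S and T. In MuPOX08340 it measured 15.5, 13.7 and 18.6 FPKM. All 6 values were under the lowest Ku70 value of 22.0 FPKM, and Ku70 F, at 30.0 FPKM, was the highest of the 9. With TMM scaling POX03446 fell 1.55-fold in MuPOX01907 (95% interval 1.18 to 2.03; log2 -0.63, SE 0.172, edgeR adjusted p = 0.0187) and 1.62-fold in MuPOX08340 (1.24 to 2.13; log2 -0.70, SE 0.172, edgeR adjusted p = 0.0312). Larger falls were seen in 23.2% and 13.6% of genes in these comparisons. Without Ku70 F the log2 differences were -0.48 and -0.55 (edgeR adjusted p = 0.0312 and 0.0361). Both calls rested on few libraries. That in MuPOX01907 was lost without MuPOX01907 S (edgeR adjusted p = 0.074) and without MuPOX01907 T (0.0629). That in MuPOX08340 was lost without MuPOX08340 F (edgeR adjusted p = 0.0667), MuPOX08340 S (0.125), MuPOX01907 S (0.0591) or MuPOX01907 T (0.0543), the last 2 of which enter through the shared spread, and in a fit of these 2 groups alone (0.0984).

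Between the mutants, which share a stated medium, POX03446 did not pass the test. Its values overlapped, with MuPOX01907 F above MuPOX08340 S, and the difference was log2 0.07 (SE 0.172, edgeR adjusted p = 0.782), in a comparison where 36.3% of all genes passed. By the rule given with the processing, the letters F, S and T pair these mutants, although the S libraries passed it only just (r = 0.101). In the deposited FPKM POX03446 was lower in MuPOX01907 than in MuPOX08340 for all 3 letters. With TMM scaling it was lower for T and higher for F and S. With the letters as a block and the mutants alone, the difference was log2 -0.25 by limma on the deposited FPKM (adjusted p = 0.106) and 0.09 by edgeR with TMM scaling (adjusted p = 0.565). In that edgeR fit 2475 genes were called higher and 2589 lower, against 1577 and 1557 in the fit of all 9 libraries. As it also left out Ku70, this rise cannot be put down to the block. With a 2-fold minimum, all 9 libraries gave 901 and 850 without the block and 912 and 848 with it. The mutants alone gave 998 and 914 without the block and 1017 and 930 with it. For POX03446, the 95% interval in the fit of all 9 libraries without the block ran from 0.80-fold to 1.38-fold. The sign depended on scaling: it was log2 -0.28 by library size alone and -0.25 by limma on FPKM as deposited. These settings moved the median log2 difference of all genes between the mutants from -0.05 to -0.39 and -0.34, and in MuPOX01907 against Ku70 from -0.03 to -0.35 and -0.29. The fall of POX03446 in MuPOX01907 accordingly measured log2 -0.95 and -0.90 there.

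**Figure D2:**
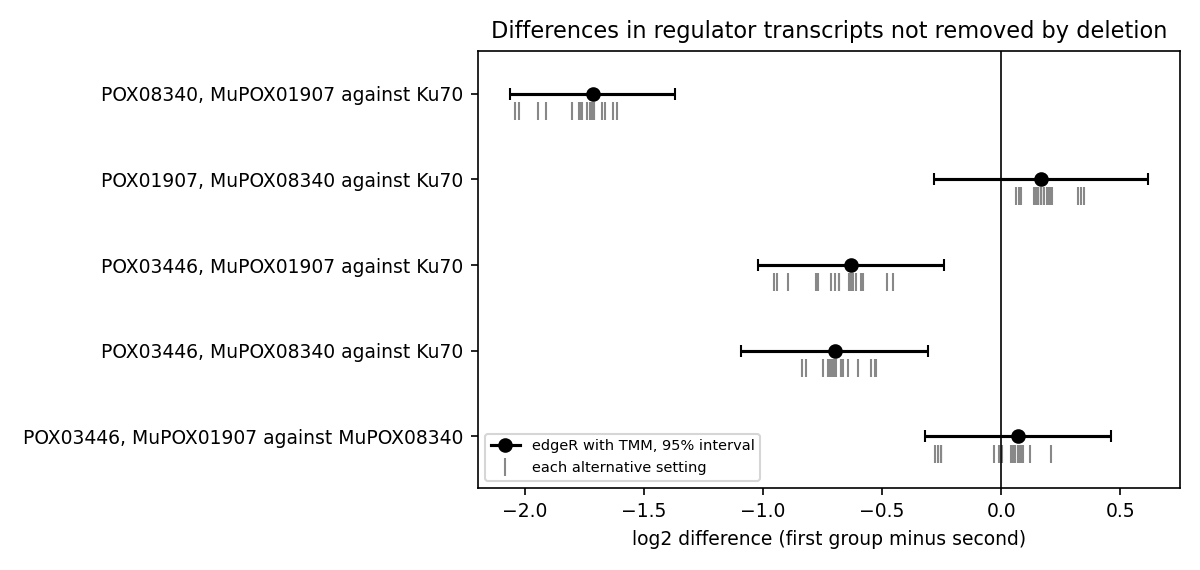
Log2 differences (x axis, first group minus second) of each regulator outside its own deletion, from edgeR with TMM scaling on 3 libraries per group, with 95% intervals. Grey ticks show the value under each alternative setting; those of POX08340 in MuPOX01907 stay between -2.04 and -1.61, and those of POX03446 between the mutants lie on both sides of 0.

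Counted over the regulators that were not deleted, both POX08340 and POX03446 fell in MuPOX01907, where 22.2% of all 8623 genes tested were called lower at an adjusted p under 0.05. With the further demand of a 2-fold change, 1 of these 2 remained, against 12.9% of all genes. In MuPOX08340, 1 of the 2 other regulators fell, POX03446, where 8.54% of genes were called lower. That share rests on 736 genes, and without single libraries their number ran from 187 (without MuPOX08340 S) to 1067 (without Ku70 F). Both of these counts use the same Ku70 libraries.

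Ratios of 2 regulators within a library do not depend on how libraries are scaled. The ratio of POX08340 to POX03446 was 1.02, 1.62 and 1.25 in Ku70 F, S and T and 0.58, 0.643 and 0.57 in MuPOX01907. The order of these genes was thus turned around in MuPOX01907, in every library. The ratio was 2.14-fold lower in MuPOX01907 (exact permutation p = 0.1, two-sided, the smallest that 3 libraries against 3 allow), and each MuPOX01907 library lay under each Ku70 library. The ratio of POX01907 to POX03446 was 1.56, 1.49 and 1.07 in MuPOX08340 F, S and T against at most 0.775 in Ku70. It was 1.84-fold higher in MuPOX08340 (exact permutation p = 0.1, two-sided, again the smallest possible). MuPOX08340 T, the mutant library with the most POX03446, had the lowest of the 3 mutant ratios. Leaving out single libraries moved the log2 differences of these ratios between -1.25 and -0.92, and between 0.77 and 1.05.

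**Figure D3:**
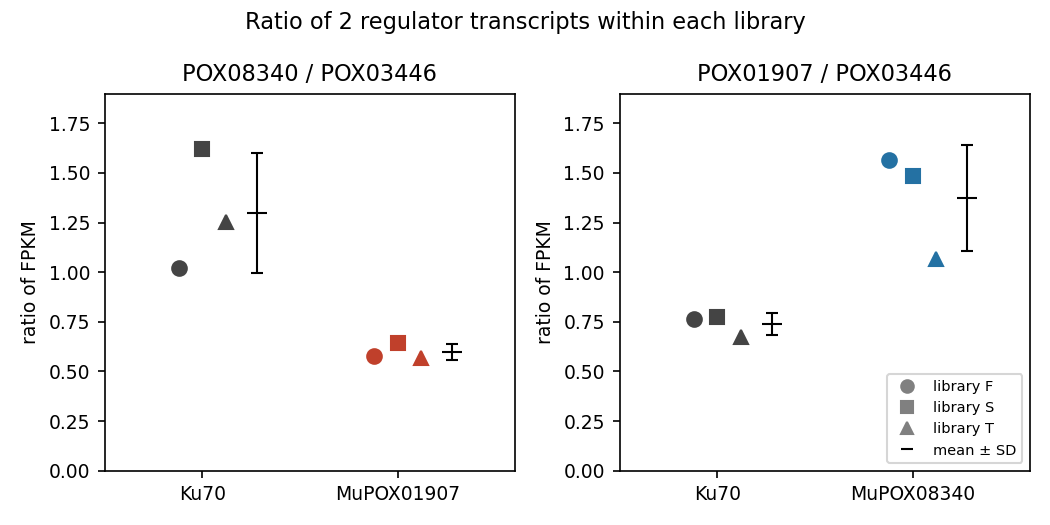
Ratio of the FPKM of 2 regulators within each library (y axis), by strain, with symbols for the letters and the mean ± SD beside them (n = 3). The ratio of POX08340 to POX03446 is above 1 in the Ku70 libraries and at most 0.643 in those of MuPOX01907, and that of POX01907 to POX03446 is below 1 in Ku70 and above 1 in MuPOX08340.

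Of the starch enzyme genes known from the HP7-1 literature, the raw starch digesting glucoamylase gene POX01356 measured 228, 206 and 194 FPKM in MuPOX01907 F, S and T and 23.8, 16.3 and 15.4 FPKM in MuPOX08340, a 14.5-fold difference with TMM scaling (log2 3.85, SE 0.437, edgeR adjusted p = 0.000283), while the PoxRsrA transcript did not differ detectably between these strains. Its Ku70 values were wide apart, at 200 FPKM in F, 404 in S and 121 in T. Against Ku70 it did not pass the test in MuPOX01907 (log2 0.11, SE 0.389, edgeR adjusted p = 0.836) and fell in MuPOX08340 (log2 -3.74, SE 0.435, edgeR adjusted p = 0.00145; -3.85 without Ku70 F). POX09352, the alpha-amylase gene of that literature, was lower than in Ku70 in both mutants (log2 -2.22 and -3.11, edgeR adjusted p = 0.000777 and 0.00069). Without Ku70 F these were -2.20 and -3.10. Between the mutants POX09352 was higher in MuPOX01907 (log2 0.90, SE 0.300, edgeR adjusted p = 0.045), but the values overlapped. Only 11 of 25 alternative settings kept that call. In MuPOX01907, 1 of these 2 enzyme genes fell, and in MuPOX08340 both did, against 22.2% and 8.54% of all genes.

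The transcripts most like each regulator were sought over the libraries in which it was not deleted, among IDs with a mean of at least 10 FPKM there. The measure was the Pearson correlation of log2(FPKM + 1), which is given as a description over few libraries of shared strain and scaling. Over 9 libraries POX03446 was most like POX08240 (r = 0.977) and POX01231 (r = 0.972) among 6611 IDs. POX08240 measured 105 ± 10.4 FPKM in Ku70, 71.3 ± 3.18 in MuPOX01907 and 75.8 ± 7.18 in MuPOX08340 (SD, n = 3 each). POX01231 measured 25.2 ± 8.11 FPKM in Ku70, 8.65 ± 1.06 in MuPOX01907 and 9.33 ± 2.62 in MuPOX08340 (SD, n = 3 each). Over the 6 Ku70 and MuPOX01907 libraries POX08340 was most like POX04040 (r = 0.999) and POX09101 (r = 0.999) among 6509 IDs. POX09101 measured 263 ± 83.3 FPKM in Ku70, 4.57 ± 1.48 in MuPOX01907 and 94.7 ± 20.8 in MuPOX08340, and POX04040 measured 113 ± 9.24, 35.1 ± 0.871 and 79.7 ± 6.31 FPKM in the same order (SD, n = 3 each). Over the 6 Ku70 and MuPOX08340 libraries POX01907 was most like POX03910 (r = 0.996) and POX02452 (r = 0.988) among 6723 IDs. POX03910 measured 48.8 ± 14.5 FPKM in Ku70, 74.8 ± 10.6 in MuPOX01907 and 57.3 ± 8.75 in MuPOX08340, and POX02452 measured 117 ± 57.7, 102 ± 13.3 and 144 ± 39.1 FPKM in that order (SD, n = 3 each). As the Ku70 libraries took part in each choice, these levels are given with no test. They are deposited FPKM, in which the median log2 difference of all genes in MuPOX01907 against Ku70 was -0.29 by limma. With TMM scaling the log2 difference there was -0.24 for POX08240 and 0.13 for POX02452, while the others named kept their direction. The sources used here give no names or roles for these IDs.

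Of the 4 IDs numbered directly beside the deleted genes, 3 changed in the mutant of that gene against Ku70 at an adjusted p under 0.05. By this rule 41.8% of all genes tested changed in MuPOX01907 against Ku70 and 14.9% in MuPOX08340 against Ku70. POX01906, the number before POX01907, measured 123, 118 and 93.2 FPKM in MuPOX01907 F, S and T, against 9.42, 4.35 and 5.13 FPKM in Ku70 and 9.35, 6.79 and 6.28 FPKM in MuPOX08340. By mean deposited FPKM it was 17.7-fold higher in MuPOX01907 than in Ku70 and 14.9-fold higher than in MuPOX08340. On the TMM scale that edgeR tests, it rose by log2 4.46 (SE 0.325, edgeR adjusted p = 3.62e-05) and 4.24 (SE 0.32, edgeR adjusted p = 3.93e-05). Only 0.36% of the genes tested had a larger rise against Ku70. Without Ku70 F, the Ku70 library with the most POX01906, the log2 difference was 4.89 (edgeR adjusted p = 3.06e-06). POX01908, the number after, did not pass the test in MuPOX01907 against Ku70 (log2 -0.40, edgeR adjusted p = 0.107).

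POX08339, the number before POX08340, measured 285, 237 and 215 FPKM in MuPOX08340 F, S and T. It measured 11.7, 73.9 and 65.6 FPKM in Ku70 and 17.8, 18.8 and 18.9 FPKM in MuPOX01907. All 3 MuPOX08340 libraries thus lay above the other 6, and Ku70 F had the least. POX08339 rose in MuPOX08340 against Ku70 (4.88-fold by mean FPKM, and log2 2.27 with TMM scaling, SE 0.539, edgeR adjusted p = 0.0275). By mean FPKM it stood 13.3-fold higher there than in MuPOX01907. With TMM scaling, MuPOX01907 against MuPOX08340 gave log2 -3.38 (SE 0.566, edgeR adjusted p = 0.0021). Against Ku70 the log2 difference was 1.81 without Ku70 F (adjusted p = 0.000108). The call was lost without MuPOX08340 F, S or T (edgeR adjusted p = 0.0523, 0.0845 and 0.0748), without MuPOX01907 S (0.054) and in a fit of these 2 groups alone (0.0891). In MuPOX01907 against Ku70, POX08339 did not pass the test (log2 -1.11, edgeR adjusted p = 0.119), whereas without Ku70 F it fell (log2 -1.58, edgeR adjusted p = 4.67e-05).

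POX08341, the number after POX08340, was lower in both mutants than in Ku70. It measured 172, 177 and 142 FPKM in Ku70 F, S and T, 32.2, 24.4 and 23.6 FPKM in MuPOX01907, and 24.1, 22.4 and 16.8 FPKM in MuPOX08340. By mean deposited FPKM it was 6.12-fold lower in MuPOX01907 and 7.74-fold lower in MuPOX08340. On the TMM scale that edgeR tests, it fell by log2 -2.29 (SE 0.196, edgeR adjusted p = 7.67e-05) and -2.98 (SE 0.202, edgeR adjusted p = 9.51e-05). Ku70 values did not overlap with those of either mutant, and both calls held in all 22 alternative settings, with log2 -2.24 and -2.93 in edgeR without Ku70 F.

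Over the 5 IDs on each side, 9 of the 10 around POX01907 were tested, of which 3 were called higher and 1 lower in MuPOX01907 against Ku70 at 2-fold or more, where 22.4% of all genes were called. Around POX08340, 2 were called higher and 1 lower of 9 tested in MuPOX08340, where 7.92% of all genes were called. Around POX03446, which no strain here lacks, 3 of 10 were called higher and 1 lower in MuPOX01907, and 2 were called lower in MuPOX08340. These counts are small, and the share around POX03446 in MuPOX01907 was much like that around POX01907. The sources used here do not say whether IDs with consecutive numbers lie side by side in the genome, how far each deletion reached or which strand the reads came from.

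**Figure D4:**
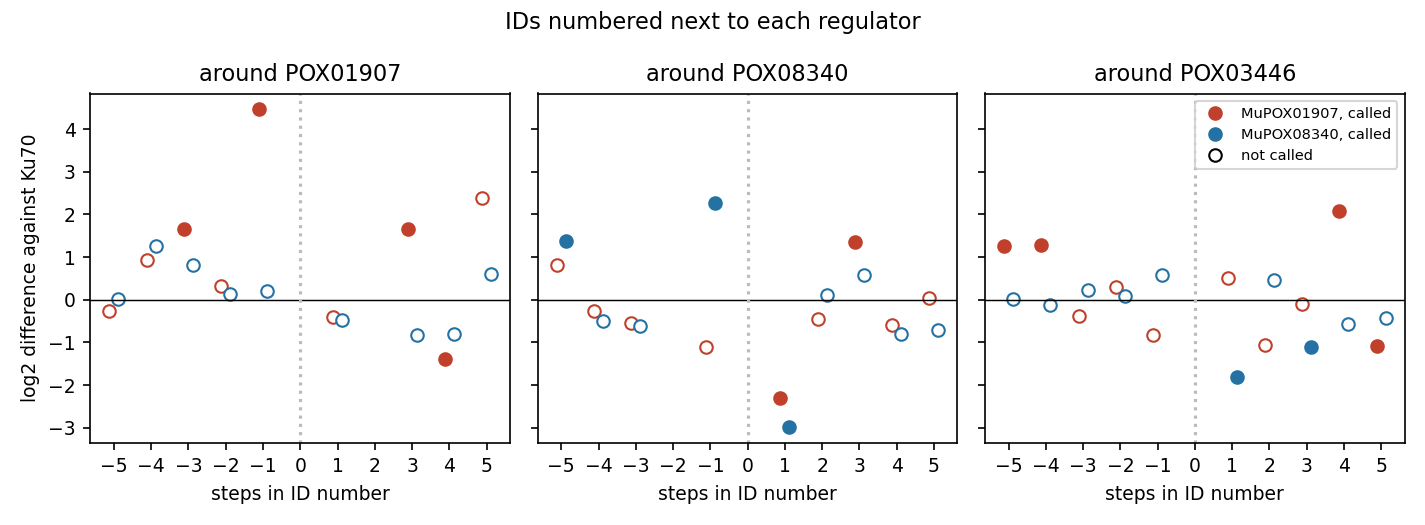
Log2 difference against Ku70 (y axis, edgeR) of the 5 IDs before and after each regulator in number (x axis), in MuPOX01907 and MuPOX08340; filled points passed an adjusted p under 0.05 and a 2-fold change. POX01906, 1 step before POX01907, stands at 4.46 in MuPOX01907 alone, POX08339, 1 step before POX08340, at 2.27 in MuPOX08340, and POX08341, 1 step after, at -2.29 and -2.98.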

How the data were processed

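Each of the 9 libraries came with 1 deposited file of expected counts and FPKM values per gene. Per the file headers the counts are expected counts, that is, reads assigned to genes by estimation. Between 97.1% and 97.8% of these values were whole within a tolerance of 1e-06. The authors' FPKM values, so called in the file headers, are read densities per gene length and library size and were not rescaled unless stated. The submitters' processing notes name RSEM 1.2.12, Bowtie2 2.1.0, BWA 0.7.10-r789 and also DESeq2. What each tool did, the genome build, the annotation, the strandedness and the handling of reads from near-identical genes: not given in the sources used here.

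Samples were grouped by the strain in the labels. Expected counts were rounded to whole numbers and tested with edgeR 4.0.16 in R 4.3.3 (TMM scaling, its default filter on low counts, quasi-likelihood F test, all 3 groups in 1 fit), which left 8623 genes. Benjamini-Hochberg adjustment ran over all of these. Standard errors and 95% intervals were derived from the F statistic and its degrees of freedom. A gene rose or fell where the adjusted p was under 0.05, and a 2-fold minimum was added where stated. The fitting steps were tested on simulated data. Alternatives used DESeq2 1.42.0 and limma 3.58.1 on log2(FPKM + 1) or log2(FPKM + 0.1) of genes with a mean FPKM of at least 1, other scalings and filters, and each library left out.

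Named genes were the 3 regulators, 2 starch enzyme IDs and 7 cellulase and xylanase IDs known from the HP7-1 literature rather than from the files, the 2 IDs most correlated with each regulator, and at most 2 called higher and 2 lower among the 5 IDs on each side. Of the called IDs on each side, only those numbered directly beside a deleted gene were named, and POX01908 was added after its values were seen. The regulators and lists were chosen with earlier results of these data known. A RefSeq gene table for assembly ASM172317v3 held 0 of the 9834 IDs, so no names, coordinates or sequences are given.

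Deviations of same-letter libraries from their group means correlated, across genes, between 0.101 and 0.581 for the mutants, between -0.064 and 0.089 for MuPOX01907 with Ku70 and between -0.174 and 0.263 for MuPOX08340 with Ku70. By the rule that every pair must exceed 0.1, the letters pair the mutants with each other, and neither mutant with Ku70. The S pair of the mutants only just passed, at 0.101. MuPOX01907 S correlated more with MuPOX08340 T (0.250), and MuPOX01907 T with MuPOX08340 S reached 0.108. The other mismatched pairs of the mutants lay between -0.556 and -0.151. Whether the S libraries are a matched pair is therefore uncertain.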

Additional observations from a re-analysis of the deposited data

How the results depend on the processing

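Over the 22 alternatives of each comparison with Ku70, the fall of POX08340 in MuPOX01907, the lack of a call for POX01907 in MuPOX08340 (log2 0.06 to 0.35) and the loss of each deleted transcript kept their direction and their side of the threshold. POX03446 in MuPOX01907 stayed between log2 -0.95 and -0.46, and in edgeR without single libraries between -0.77 and -0.48, losing its call in 2 of these settings. In MuPOX08340 it stayed between -0.84 and -0.53, lost its call in the fit of these 2 groups alone (log2 -0.72) and in 4 edgeR settings without 1 library (range over all 9 such settings -0.84 to -0.55). Its sign between the mutants turned with upper quartile factors (-0.011), by library size only (-0.28), with limma on FPKM as deposited (-0.25 with a pseudocount of 1, -0.27 with 0.1) and without MuPOX08340 S (-0.028); in edgeR without single libraries it ranged from -0.028 to 0.21, and limma on deposited FPKM without Ku70 F gave -0.25. The cause of these losses and turns was not tested, apart from the scaling shift given with the result. The glucoamylase gene POX01356 in MuPOX01907 against Ku70, not called, turned to -0.20 by library size only, to -0.034 and -0.033 in the limma fits on deposited FPKM with a pseudocount of 1 and 0.1, and without Ku70 F (-0.0012, and -0.083 by limma) or Ku70 T (-0.22), against 0.66 without Ku70 S. POX01906 in MuPOX08340, not called, turned to -0.016 without Ku70 S and was 0.65 without Ku70 F.

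With the replicate block, POX08340 in MuPOX01907 measured log2 -1.71 and POX01907 in MuPOX08340 0.18. POX03446 then measured -0.62 and -0.69 against Ku70 and 0.07 between the mutants (edgeR adjusted p = 0.75). In fits of the mutants alone with the block it measured 0.09 by edgeR and -0.25 by limma on deposited FPKM. The block changed none of these calls. The limma fits without Ku70 F and the fits of the mutants alone with the block were chosen after seeing the data.

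Counts of called genes moved by over 1.5 times under some settings. By adjusted p and 2-fold change, MuPOX01907 against Ku70 gave 822 higher and 1110 lower, and 485 and 1755 by library size only. MuPOX08340 against Ku70 gave 240 and 443, 113 and 201 in the fit of these groups alone, 117 and 164 without MuPOX08340 S, 132 and 182 without MuPOX08340 T, and 385 and 376 (50.6% higher) without MuPOX08340 F. MuPOX01907 against MuPOX08340 gave 901 and 850, and 590 and 1445 by library size only. The share of higher calls went from 42.5% to 21.7% and from 51.5% to 29% by library size only. At the depth of these libraries POX08340 kept 208 or more reads in each MuPOX01907 library, where counting error alone is 6.71% of its level.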
